A study of Mus musculus with 2 samples.

Results

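Mø cluster 1 is the name the authors gave to a population of macrophages among the leukocytes of YUMM1.7 tumours. Its members are the cells that carry this name in the deposited cell table, 726 of the 10050 annotated cells. Of these, 481 came from the APOE2 library and 245 from the APOE4 library, out of 4665 and 5385 annotated cells. The authors named a second macrophage population Mø cluster 2, with 398 and 161 cells, and this is the closest comparison throughout. YUMM1.7 is a mouse melanoma line driven by mutant Braf. Tumours were started from 100000 cells in Matrigel under the flank skin of human APOE2 knock-in mice or human APOE4 knock-in mice, and removed on day 19. The mice of both groups carry a human APOE gene in the germline, so no unmodified mouse enters the comparison, and the injected tumour cells are of neither genotype. The sources used here do not give the strain, sex or age of the mice. CD45+ DAPI- cells, live leukocytes by these stains, were sorted from 6 mice per genotype, 10000 from each, and joined into 1 pool of 60000 cells, of which 5000 were targeted for sequencing with 3′ chemistry. Each genotype is therefore 1 library in which single mice cannot be told apart. No difference below has a replicate check, and every interval covers counting error only.

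Macrophages are phagocytes that clear dying cells and debris, present peptides on MHC class II, and secrete chemokines and complement. In tumours they derive largely from blood monocytes and take on many states, set by interferons, lipid load, oxygen and growth factors. Cells of long residence in a tissue typically carry scavenger receptors such as Mrc1, Folr2 and Stab1, while recently arrived cells keep monocyte genes such as Ly6c2. APOE, the protein that differs between the hosts, carries lipid between cells, is made by macrophages among others, and binds receptors of the LDL receptor family and Trem2.

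A member held a median of 10894 UMIs (unique molecules counted) in the APOE2 library and 9585 in the APOE4 library, and 3073 and 2912 detected genes. Mø cluster 2 was slightly shallower, at 9755 and 8406 UMIs. The median share of mitochondrial UMIs in Mø cluster 1 was 4.66% and 3.27%. Summed over members, 5381196 and 2606484 UMIs were available. Levels are UMIs per 1000000 UMIs of the label in that library (CPM), with the APOE2 library first. Ratios are APOE4 over APOE2 unless another pair is named, with the exact conditional 95% interval of 2 counts in brackets. The libraries shared 9 barcodes, and no barcode was a member in both. The matrix counts reads on mouse genes, so the mouse Apoe symbol cannot check which human allele a library carries.

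The label was first checked against 4 genes that mark these cells. C1qa, C1qb and Ms4a7 were highest in Mø cluster 1 in both libraries, of 20 labels compared (19 with at least 50 cells in each library, and B cells). A further macrophage label, Skin resident Mø, had only 47 and 8 cells and was left out of the rankings of labels here and below. C1qa, a chain of the complement initiator C1q, stood at 5132 and 4906 CPM against 3352 and 2842 in Mø cluster 2. C1qb, a partner chain, stood at 5088 and 4592 CPM. Ms4a7, a tetraspan membrane protein of macrophages, stood at 735 and 704 CPM, and the next label reached 311 and 327. Mrc1, the mannose receptor, was the exception. It stood at 994 CPM in the APOE2 library and 374 in the APOE4 library, below Mø cluster 2 with 1349 and 846. All 12 genes of a general macrophage list were detected in both libraries, with a summed level of 18125 and 16313 CPM, in each library the highest of the labels with at least 20 cells in both. Names rest on clusters of the same cells, so these levels describe the label and test nothing.

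**Figure D1:**
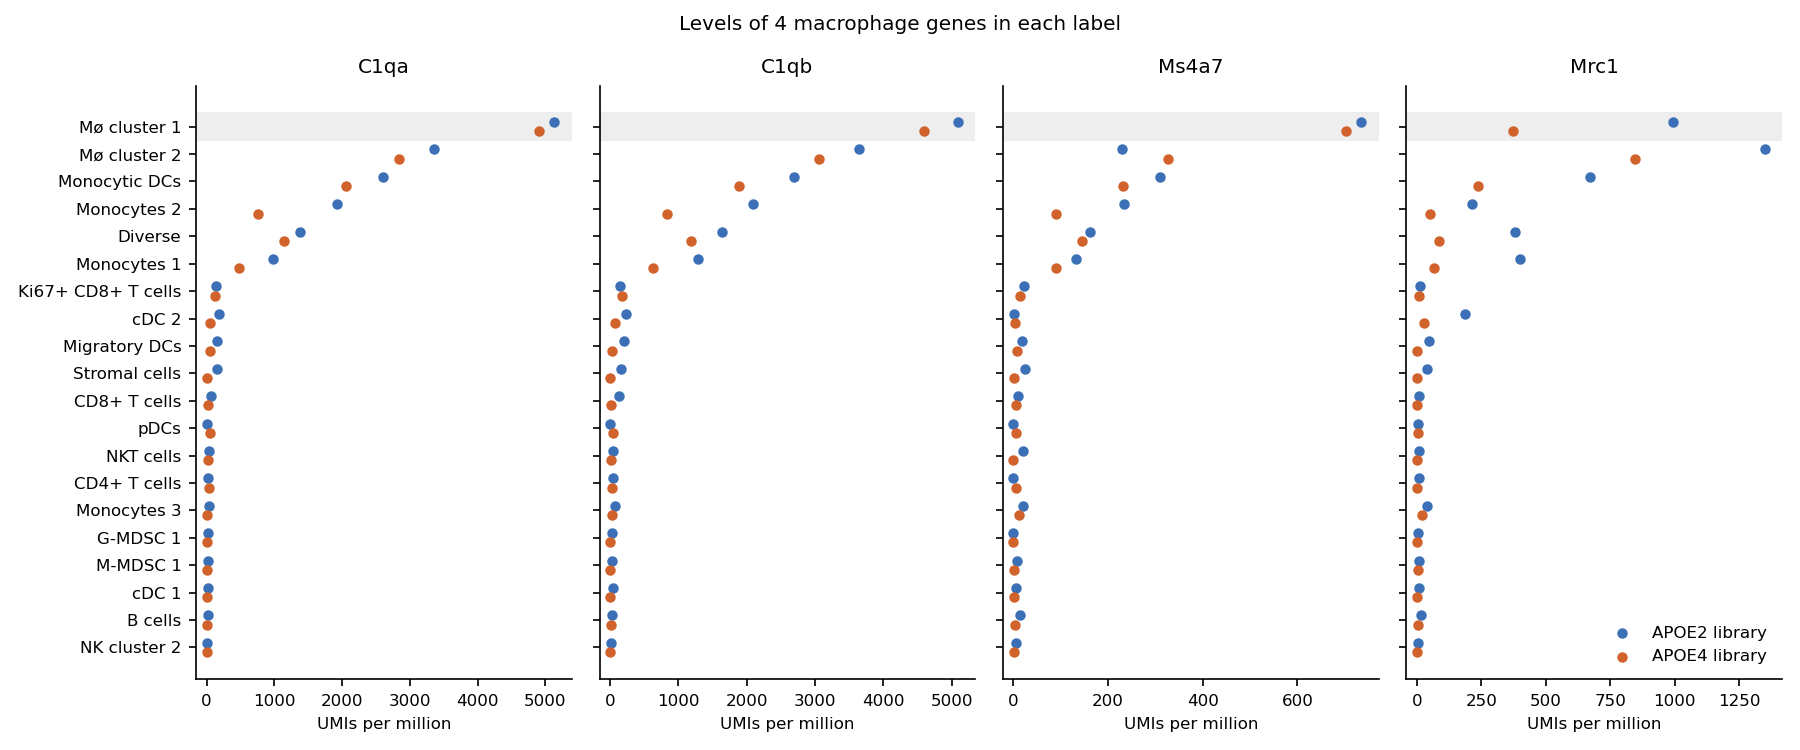
Level of C1qa, C1qb, Ms4a7 and Mrc1 (horizontal axes, CPM) in each of the 20 labels (vertical axis, ordered by C1qa). Each point is 1 library, and the shaded band is Mø cluster 1, which holds the highest C1qa, C1qb and Ms4a7 in both libraries, while Mrc1 is highest in Mø cluster 2.

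Cell by cell, most members carried the C1q genes. With every cell thinned to 3000 UMIs, which leaves out 13 and 4 shallower members, C1qa was found in 95.3% of APOE2 and 89.6% of APOE4 members. In lymphoid labels, which should lack the gene, the shares were 5.56% and 2.77%. Before thinning the shares of members were 95.6% and 91.8%. Ms4a7 was found in 55.6% and 57.3% of thinned members and in 2.22% and 0.724% of lymphoid cells. For Mrc1 the libraries parted, with 86.1% of APOE2 members and 43.6% of APOE4 members positive, against 1.85% and 0.121% of lymphoid cells.

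Of the 6965 genes that reached 100 UMIs in Mø cluster 1, 82 were higher in Mø cluster 1 than in each of the 18 other labels with at least 50 cells per library, in both libraries (1.18%). Skin resident Mø, with 47 and 8 cells, was not among the labels compared. The genes that stood furthest above the next label were a group of membrane proteins, C1q chains and small enzymes. Cx3cr1, the fractalkine receptor of monocyte-derived and resident macrophages, stood at 292 and 277 CPM, against 169 and 131 in the next label and 27.2 and 42.9 in Mø cluster 2. Hpgds, the synthase of prostaglandin D, stood at 82.7 and 71.0 CPM, with the next label at 45.5 and 47.2. P2ry6, a receptor for UDP that triggers phagocytosis, stood at 135 and 130.1 CPM, and C1qc, the third C1q chain, at 2991 and 2577. Also in this group were Itga9, an integrin chain (52.8 and 59.5 CPM), and Ang, a secreted ribonuclease (42.0 and 35.7 CPM). The others were C1qa and Ms4a7, given above, and Ntpcr, Ms4a14, Abcg3 and Pald1, with Ntpcr at 227 and 218 CPM. Of these 12 genes none differed 2-fold between the libraries, and the furthest from 1 was Ms4a14, with a ratio of 0.547 [0.326, 0.884]. The ranking took the smaller of the 2 libraries' ratios to the next label, so it favours genes with similar levels in both.

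Mø cluster 1 was a smaller part of the APOE4 library. It held 10.3% of annotated cells in APOE2 (Clopper-Pearson interval 9.45 to 11.2) and 4.55% in APOE4 (4.01 to 5.14), a ratio of 0.441 [0.380, 0.512]. Of myeloid cells alone it held 13.3% and 7.56%, a ratio of 0.567. Of cells under the 2 macrophage cluster names it held 54.7% and 60.3%, a ratio of 1.10 [0.999, 1.22], so the balance between the clusters differed little. Equal numbers of leukocytes were sorted per mouse, so a share carries no information on macrophage numbers per tumour.

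The first comparison described what separates the macrophage clusters within each library. Mø cluster 1 had more MHC class II, more Cx3cr1 and Vcam1, and less of the hypoxia, heme and lipid-associated genes that ran high in Mø cluster 2. Of the 8217 genes that reached 100 UMIs over both clusters, 140 were at least 2-fold higher in Mø cluster 1 in both libraries (1.70%) and 223 were at least 2-fold lower (2.71%). Genes of the cells that were clustered cannot support the split, so these values are descriptions too.

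On the side of Mø cluster 1, Cxcl9, a chemokine that draws T cells through CXCR3, came first by the interval bound nearest to 1 over both libraries. Its ratio of Mø cluster 1 over Mø cluster 2 was 31.0 [18.3, 57.0] in APOE2 and 8.81 [7.42, 10.5] in APOE4. Vcam1, an adhesion molecule, stood 10.4 and 8.85 times higher, and Cx3cr1 10.7 and 6.45 times. Only a minority of thinned members held Vcam1, 11.1% and 9.54%, against 1.08% and 2.76% of Mø cluster 2 cells. Surface receptors filled much of the rest. Cd72, an inhibitory lectin-like receptor, had ratios of 5.77 and 5.53, and Il1r2, the decoy receptor that binds interleukin 1 without signalling, 5.06 and 6.20. Axl, a receptor that recognises dying cells through Gas6, had ratios of 5.10 and 4.69. Lilra5 (12.2 and 20.97), the protease inhibitor Spint1 (10.1 and 5.81) and the interferon-induced membrane gene Ifitm1 (5.46 and 4.72) also belonged to the group. Lilra5 was found in only 1.71% and 5.81% of thinned members. Zmynd15, Pxdc1 and 2900026A02Rik completed the 12 genes.

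MHC class II genes were higher in Mø cluster 1 in both libraries for 10 of 10 measured members. The median log2 ratio of Mø cluster 1 over Mø cluster 2 was 0.55 in APOE2 and 0.84 in APOE4. For all 10769 genes that reached 20 UMIs it was 0.06 and 0.07, with 56.7% and 55.5% of genes higher by any amount. H2-Eb1, a class II beta chain, had ratios of 1.68 and 2.07, and the invariant chain Cd74 1.38 and 1.66. Proliferation genes were higher for 20 of 23 members, with medians of 0.64 and 1.00, and cholesterol synthesis genes for 17 of 22, with medians of 0.61 and 0.30.

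The genes higher in Mø cluster 2 were of several kinds. Ccl6, a chemokine of myeloid cells, was 8.07 [7.77, 8.38] times higher in Mø cluster 2 in APOE2 and 17.9 [16.2, 19.8] times in APOE4. Arg1, which consumes arginine, stood at 482 and 252 CPM in Mø cluster 1 and 2355 and 1495 in Mø cluster 2. Hmox1, which breaks down heme, stood at 219 and 96.7 CPM against 1277 and 1452. Thus Arg1 was 4.88 and 5.94 times and Hmox1 5.83 and 15.0 times higher in Mø cluster 2. The coagulation factors F7 (0.126 and 0.0612) and F10 (0.240 and 0.190), the leukotriene synthase Ltc4s (0.172 and 0.151) and the transcription factor Klf2 (0.221 and 0.222) had low ratios of Mø cluster 1 over Mø cluster 2. So did the lectin Fcna (0.205 and 0.145), and Car6, Ms4a8a, Calml4 and Fam20a were the remaining genes of this group.

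Of the lists, hypoxia and glycolysis genes were lower in Mø cluster 1 for 27 of 28 members in each library, with medians of -0.71 and -0.72. Lipid-associated macrophage genes had medians of -0.995 and -1.20, with 15 and 18 of 19 members lower. In this list the cathepsin Ctsd had ratios of 0.456 and 0.339, and the galectin Lgals3 0.502 and 0.434. Alternative activation genes stood at -0.80 and -1.18, with 16 of 20 members lower in both libraries. Tissue-resident genes separated the clusters further in APOE4 (-2.09) than in APOE2 (-0.63), a gap between libraries that was not tested. The type I interferon list even lay on opposite sides, at -0.36 in APOE2 with 26 of 31 members lower in Mø cluster 1, and 0.35 in APOE4 with 24 of 31 higher.

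**Figure D2:**
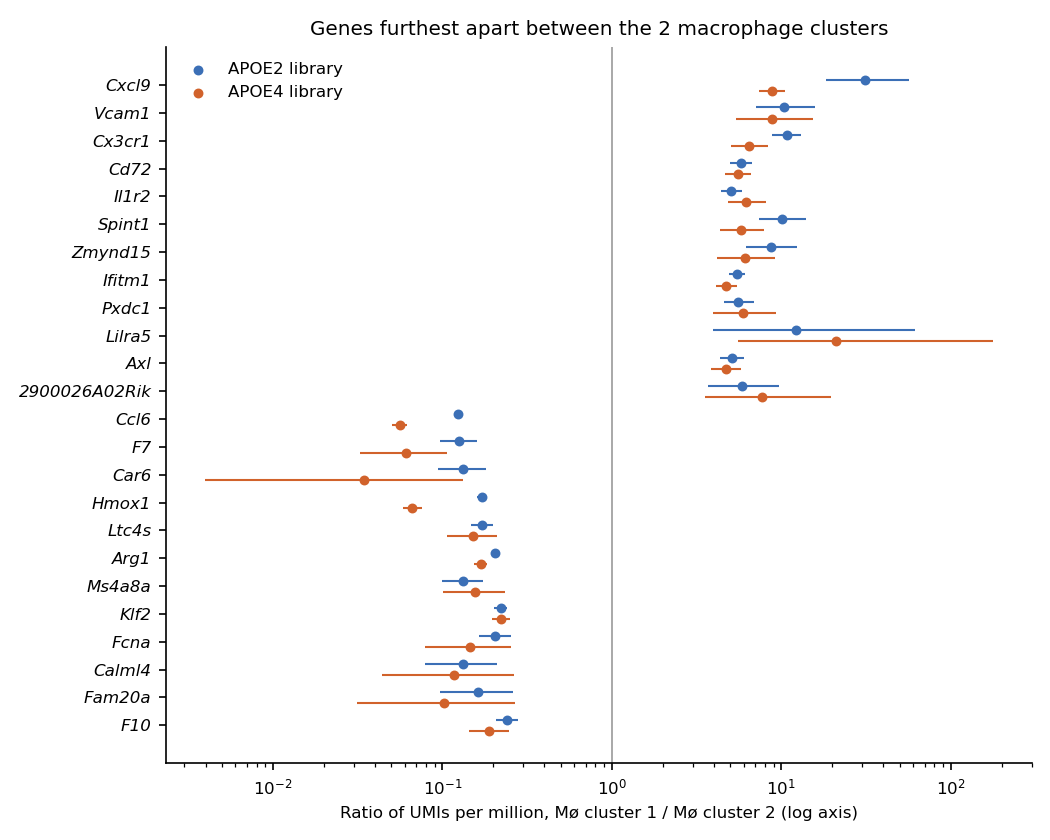
Ratio of the level in Mø cluster 1 to that in Mø cluster 2 (horizontal log axis) for the 12 genes furthest apart in each direction (vertical axis), in the APOE2 and APOE4 libraries. Points are ratios of CPM and lines are 95% counting intervals, and Cxcl9 lies above 8 in both libraries while Ccl6 lies below 0.2.

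The second comparison asked how Mø cluster 1 differed between tumours of APOE2 and APOE4 hosts. In the APOE4 library these macrophages held more transcripts of interferon-induced genes, MHC and several monocyte genes, and fewer of tissue-resident and lipid-associated genes and of several scavenger receptors. C1q and the transcription factors that define macrophages were nearly level. Of the 6965 genes that reached 100 UMIs, 152 had a ratio of 2 or more (2.18%) and 105 a ratio of 0.5 or less (1.51%).

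Of the 12 genes that stood furthest above 1, 5 belong to the interferon lists used below, namely Gbp2b, Cxcl9, Ly6a, Irf7 and Fam26f. Gbp2b, a guanylate-binding protein, had 9 UMIs in APOE2 and 111 in APOE4, a ratio of 25.5 [12.9, 57.1]. In Mø cluster 2 it was at 0 UMIs in the first library and 18 in the second, at least 15.7-fold higher against a floor of 3 UMIs per library. Cxcl9 stood at 103 and 768 CPM, a ratio of 7.43 [6.76, 8.18], and in Mø cluster 2 at 3.34 and 87.1. Ly6a, known as the stem cell antigen Sca-1, stood at 221 and 1647 CPM, a ratio of 7.46 [6.99, 7.96], with 4.04 in Mø cluster 2. The complement component C3, which coats particles for uptake, had a ratio of 6.08 [5.28, 7.03], and Irf7, the factor that amplifies type I interferon, 5.50 [4.85, 6.25].

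Il18bp, which neutralises the cytokine interleukin 18, stood at 16.2 and 88.6 CPM, a ratio of 5.48 [4.27, 7.10]. The MHC class I gene H2-Q7 had a ratio of 4.73 [4.28, 5.24], Fam26f 6.05 [4.70, 7.84], Pydc4 6.78 [4.96, 9.40] and Ly6i 16.1 [12.4, 21.3]. Reads of the H2-Q, Ly6, Gbp and Pydc families can be split between near-identical genes, so these levels are uncertain one by one. Dnase1l3, a nuclease that digests DNA of dying cells, had 17 and 171 UMIs, a ratio of 20.8 [12.6, 36.5], and 3 and 0 UMIs in Mø cluster 2. Spon1, an extracellular matrix protein, stood at 7.62 and 84.0 CPM, with ratios of 11.0 [7.87, 15.8] in Mø cluster 1 and 1.31 [0.879, 1.91] in Mø cluster 2. Across labels with at least 20 UMIs, Dnase1l3 was higher in APOE4 in 7 of 8 and Spon1 in 10 of 11, so neither difference was confined to Mø cluster 1.

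Some of these differences spanned the whole library. Irf7 and H2-Q7 were higher in APOE4 in 20 of 20 labels with at least 20 UMIs of the gene, Pydc4 in 17 of 17, Ly6a in 18 of 19 and Cxcl9 in 13 of 14. All labels of a genotype come from the same library, so these counts are not separate evidence.

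**Figure D3:**
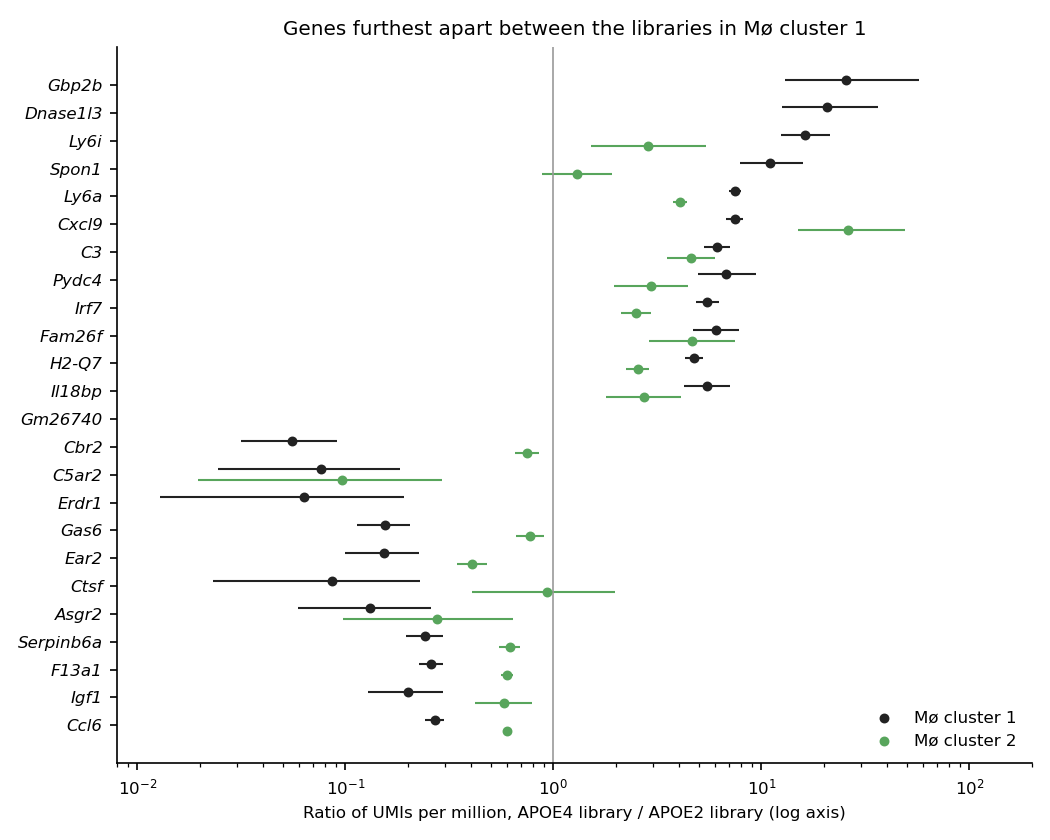
Ratio of the APOE4 to the APOE2 library (horizontal log axis) for the 12 genes furthest apart in each direction in Mø cluster 1 (vertical axis), with the same ratio in Mø cluster 2. Points are ratios of CPM, lines are 95% counting intervals, and genes with 0 UMIs in a library have no point; Cxcl9 is further apart in Mø cluster 2, Cbr2 and Gas6 in Mø cluster 1.

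The interferon lists were then examined as groups. Type I interferon genes were higher in APOE4 for 31 of 31 measured members, all 31 past 1.5-fold, with a median log2 ratio of 1.88. Interferon gamma genes were higher for 24 of 24, also all past 1.5-fold, with a median of 2.01. Over all 10053 genes that reached 20 UMIs, 50.7% were higher by any amount, 8.94% were past 1.5-fold up and 9.54% past 1.5-fold down, and the median was 0.01. In Mø cluster 2 the medians were 0.92 and 1.35, where 49.9% of all genes were higher by any amount. In Monocytes 1, 2 and 3 the type I medians were 1.95, 0.44 and 1.05, and the gamma medians 1.57, 0.67 and 1.73. The type I median of Mø cluster 1 was therefore close to that of Monocytes 1 and the gamma median was the highest of these 5 labels.

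Isg15, a ubiquitin-like antiviral protein, stood at 65.6 and 310 CPM, a ratio of 4.73 [4.17, 5.37]. Ifit3 and Ifi44, further antiviral genes, had ratios of 6.82 [4.88, 9.71] and 18.6 [9.95, 38.4]. Isg15 was found in 11.8% and 43.6% of thinned members, and in 18.5% and 30.6% of lymphoid cells. The APOE2 share of members was thus no higher than that of lymphoid cells. Cxcl10, a second CXCR3 chemokine, had a ratio of 5.61 [4.92, 6.40] in Mø cluster 1 and 1.19 [0.931, 1.52] in Mø cluster 2. Cxcl9 was found in 5.34% and 30.7% of thinned members. In lymphoid cells it was found in 0 of 270 in APOE2, which allows a share of up to 1.11%, and in 1.09% in APOE4. Gbp2 stood at 38.1 and 199.9 CPM, and Cd274, the checkpoint ligand PD-L1, at 18.2 and 53.7, a ratio of 2.95 [2.26, 3.86].

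The signalling parts of the interferon response were examined next. Ifngr1, the ligand-binding chain for interferon gamma, had a ratio of 0.939 [0.880, 1.00], and Ifngr2, its signalling partner, 1.27 [1.14, 1.42]. Stat2, a transducer of type I interferon, had a ratio of 2.89 [2.26, 3.72]. The transcription factors Irf1 and Irf8 had ratios of 2.50 [2.14, 2.91] and 1.66 [1.51, 1.83]. Of the 15 receptors and transducers measured, 13 were higher, with a median of 0.35, and several of these genes are themselves induced by interferons.

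Promoters of 4 of these genes are shown because Isg15 and Irf1 are textbook targets of the factors activated by type I interferon and interferon gamma, and Cxcl9 and Gbp2b were among the genes furthest apart. Each sequence is RefSeq's, from the GRCm38.p6 build, runs 5′ to 3′ on the gene's strand from 250 bases before to 50 bases after the annotated start, and has the matches in capitals. The letters searched on both strands were GAAANNGAA, the core of the interferon-stimulated response element, and TTCNNNGAA, the gamma-activated sequence, and matches may overlap. Cxcl9 (chr5:92328030-92328329, minus strand) and Gbp2b (chr3:142594597-142594896, plus strand) held 1 match to the first, Isg15 (chr4:156200769-156201068, minus strand) 3 overlapping ones, and Irf1 (chr11:53769764-53770063, plus strand) 1 match to the second.
Cxcl9: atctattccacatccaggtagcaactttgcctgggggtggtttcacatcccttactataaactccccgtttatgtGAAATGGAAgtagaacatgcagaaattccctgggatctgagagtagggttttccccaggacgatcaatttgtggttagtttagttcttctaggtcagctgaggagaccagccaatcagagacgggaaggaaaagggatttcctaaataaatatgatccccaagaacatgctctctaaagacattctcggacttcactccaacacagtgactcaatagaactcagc
Gbp2b: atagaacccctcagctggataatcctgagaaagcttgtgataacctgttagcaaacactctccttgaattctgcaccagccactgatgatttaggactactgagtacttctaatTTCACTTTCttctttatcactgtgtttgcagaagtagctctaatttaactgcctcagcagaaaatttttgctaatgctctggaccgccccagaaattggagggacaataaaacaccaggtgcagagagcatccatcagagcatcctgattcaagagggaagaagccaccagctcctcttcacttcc
Isg15: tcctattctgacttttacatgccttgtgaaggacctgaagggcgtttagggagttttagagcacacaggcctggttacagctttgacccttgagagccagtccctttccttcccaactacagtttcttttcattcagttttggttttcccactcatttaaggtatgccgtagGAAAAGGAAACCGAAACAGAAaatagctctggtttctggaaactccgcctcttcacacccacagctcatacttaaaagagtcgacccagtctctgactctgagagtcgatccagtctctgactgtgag
Irf1: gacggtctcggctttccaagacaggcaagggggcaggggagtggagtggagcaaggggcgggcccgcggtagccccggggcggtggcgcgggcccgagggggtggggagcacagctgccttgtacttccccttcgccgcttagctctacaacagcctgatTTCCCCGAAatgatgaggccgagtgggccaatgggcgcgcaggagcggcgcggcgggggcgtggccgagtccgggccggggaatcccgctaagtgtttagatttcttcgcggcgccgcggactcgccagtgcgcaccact

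Of genes with a promoter in the RefSeq table, 9.76% held GAAANNGAA and 9.55% TTCNNNGAA. Of the type I list 23 of 32 genes were matched to the table, and 13 of them (56.5%) held the first motif and 5 the second. Of the interferon gamma list 19 of 30 were matched, and 15 (78.9%) held the first and 10 (52.6%) the second. Among tissue-resident genes 3 of 16 matched genes held the first and 0 the second. The interferon lists were built from known interferon targets, so the share of matches restates how they were chosen, and a match is a description of letters only.

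Antigen presentation followed. MHC class I genes were higher in APOE4 for 18 of 18 members, with a median log2 ratio of 0.98 (0.72 in Mø cluster 2). The classical chain H2-K1 stood at 1521 and 3322 CPM, a ratio of 2.18 [2.12, 2.25], and the light chain B2m at 1886 and 3369. Tap1, which pumps peptides toward class I, had a ratio of 2.52 [2.23, 2.85], and Nlrc5, the activator of class I genes, 3.34 [2.39, 4.69].

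MHC class II genes were higher for 9 of 10 members, 5 of them past 1.5-fold, with a median of 0.53. H2-Aa, H2-Ab1 and H2-Eb1, the chains of the surface complex, had ratios of 1.52, 1.65 and 1.57. Cd74 stood at 13350 and 17081 CPM, a ratio of 1.28 [1.26, 1.29], whereas it was lower in APOE4 in 17 of 20 labels. For Mø cluster 2 the class II median was 0.28, and for the monocyte labels 1 to 3 it was 0.21, -0.33 and -0.49. Mø cluster 1 thus had the highest class II median of the 5 labels, and the differences between labels were not tested.

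Complement was mixed. C1qa and C1qb had ratios of 0.956 [0.936, 0.976] and 0.903 [0.883, 0.922], and C1qc 0.862 [0.837, 0.887]. C3 and C4b, which act downstream of C1q, were higher, with C3 at 48.5 and 295 CPM and C4b at 13.6 and 44.9. Properdin (Cfp), which stabilises the alternative pathway convertase, had a ratio of 0.705 [0.654, 0.761]. The receptors for the fragment C5a were lower, C5ar1 at 282 and 123 CPM and C5ar2 at 25.1 and 1.92. The ratio of C5ar2 was 0.0765 [0.0244, 0.183], resting on 5 UMIs in APOE4, and Mø cluster 2 had 0.0967.

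Tissue-resident macrophage genes were lower in the APOE4 library. Of 16 measured members of the list, 14 were lower and 13 past 1.5-fold down, with a median log2 ratio of -1.59. The median was the same with the member at 0 UMIs in APOE4 set to the floor of 3 UMIs. In the comparison labels it was -0.50 (Mø cluster 2), -1.15, -1.04 and -0.14 (Monocytes 1 to 3). Cbr2, a carbonyl reductase of resident macrophages, had 595 and 16 UMIs, 18.0-fold lower [11.0, 31.7] in APOE4, and a ratio of 0.746 [0.655, 0.848] in Mø cluster 2. Gas6, the bridge that links dying cells to Axl and Mertk, stood at 129 and 19.9 CPM, 6.48-fold lower [4.89, 8.77], and had a ratio of 0.770 in Mø cluster 2. Both genes were lower in APOE4 wherever they reached 20 UMIs, Cbr2 in 7 of 7 labels and Gas6 in 5 of 5, and the larger gap in Mø cluster 1 than in Mø cluster 2 was not tested.

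Pf4, a platelet-type chemokine that resident macrophages also make, stood at 1999 and 687 CPM, a ratio of 0.344 [0.327, 0.361]. The transglutaminase F13a1 stood at 365 and 94.4 CPM, and the growth factor Igf1 at 52.0 and 10.4. Of 11 scavenger and mannose receptors 7 were lower, with a median of -0.16, and Msr1, which takes up modified lipoproteins, was higher at 1.30 [1.20, 1.41]. Mrc1 had a ratio of 0.376 [0.351, 0.403], Stab1 0.377 [0.337, 0.421], the lectin Mgl2 0.271 [0.238, 0.306] and the folate receptor Folr2 0.321 [0.263, 0.389]. In Mø cluster 2 the same 4 genes had ratios of 0.627, 1.14, 0.849 and 0.644, so Stab1 was not lower there. Lyve1, a hyaluronan receptor named after its values were seen, had 36 and 0 UMIs, at least 5.81-fold lower against 3 UMIs. Mrc1 was lower in 10 of 10 labels where it was measured.

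Other genes among the 12 lowest were of several kinds. The eosinophil-type ribonuclease Ear2 stood at 67.8 and 10.4 CPM, and the cathepsin Ctsf at 17.8 and 1.53. The lectin Asgr2 had a ratio of 0.132 [0.0590, 0.257], the protease inhibitor Serpinb6a 0.241 [0.196, 0.294] and Ccl6 0.269 [0.242, 0.298]. In Mø cluster 2 Ctsf had a ratio of 0.932 and Serpinb6a 0.617. The antisense gene Gm26740, with 282 UMIs in the APOE2 library, was at 0 in the other, which makes it at least 45.5-fold lower there. It was at 0 in the APOE4 library in each of the 20 labels compared. Erdr1 had 98 and 3 UMIs, a ratio of 0.0632 [0.0128, 0.190], and was lower in APOE4 in 12 of 13 labels with at least 20 UMIs. The low values of Gm26740 and Erdr1 are thus no feature of these macrophages alone.

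Efferocytosis, the uptake of dying cells, was mixed. Of 18 members 10 were lower and 8 higher, with a median of -0.25. The receptor Axl was higher, at 211 and 307 CPM, and was found in 37.6% and 61.0% of thinned members, against 2.22% and 1.33% of lymphoid cells. Its ligand Gas6, at the levels above, and Mfge8, which tags dying cells for integrins and had a ratio of 0.344 [0.218, 0.523], were lower. The large uptake receptor Lrp1 had a ratio of 0.629 [0.571, 0.691] in Mø cluster 1 and 1.01 [0.909, 1.11] in Mø cluster 2.

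Genes of lipid handling were examined because APOE carries lipid. The lipid-associated list was lower for 14 of 17 members, with a median of -0.50 (-0.22 in Mø cluster 2). In Monocytes 1, 2 and 3 the median was -0.67, -0.77 and -0.21, so Mø cluster 1 did not have the lowest value. Lpl, which releases fatty acids from lipoproteins, stood at 82.1 and 35.3 CPM, a ratio of 0.430 [0.339, 0.539]. Fabp5, a fatty acid carrier, had a ratio of 0.498 [0.451, 0.549], the elastase Mmp12 0.309 [0.259, 0.365] and the lysosomal protease Ctsd 0.550 [0.520, 0.582]. Trem2, a lipid receptor that binds APOE, stood at 510.1 and 335 CPM, a ratio of 0.656 [0.607, 0.708], while its adaptor Tyrobp had 1.04 [1.01, 1.08]. Trem2 was lower in APOE4 in 11 of 11 labels where it was measured.

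The mouse Apoe symbol stood at 304 and 228 CPM in Mø cluster 1, a ratio of 0.749 [0.680, 0.823], and at 453 and 371 in Mø cluster 2. Its direction turned within Mø cluster 1, as given below for cells of low and high class II. The sources used here do not say how reads of a human APOE transcript map to the mouse genome, so this is no measure of the knock-in transcript. The LXR list, genes of cholesterol sensing and export, was lower for 11 of 18 members, at a median of -0.18. Nr1h3, which encodes LXR alpha, stood at 16.9 and 38.0 CPM, with ratios of 2.25 [1.67, 3.02] in Mø cluster 1 and 0.751 [0.426, 1.27] in Mø cluster 2. Npc2, which moves cholesterol out of lysosomes, had a ratio of 1.43 [1.37, 1.49], and the phospholipid carrier Pltp 0.849 [0.781, 0.923]. Cholesterol synthesis genes had a median of 0.22, with 15 of 21 members higher and Insig1, the brake on sterol synthesis, at 1.83 [1.43, 2.35]. APOE receptors had a median of 0.05, with 5 of 9 higher, so Lrp1 and Trem2 did not stand for the list.

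Chemokines went both ways. In a list that also holds Cxcl9, Cxcl10 and Pf4, of 19 members 12 were lower, 8 of them past 1.5-fold, while 5 were past 1.5-fold up, and the median was -0.45. Ccl2 and Ccl7, which recruit monocytes through CCR2, stood at 616 and 241 CPM and at 513 and 230.2, ratios of 0.392 [0.359, 0.427] and 0.448 [0.410, 0.490]. In Mø cluster 2 their ratios were 1.03 and 0.931. Ccl8, a relative with the same receptor family, went the other way at 416 and 708 CPM, a ratio of 1.70 [1.60, 1.81]. Only a minority of thinned members held Ccl8, 15.6% in APOE2 and 10.8% in APOE4, so the share of positive cells was not higher in APOE4. Ccl5, which attracts T cells, stood at 167 and 855 CPM, a ratio of 5.12 [4.74, 5.54]. T cell markers, which accompany Ccl5 in lymphocytes, summed to 52.6 and 112 CPM in the members, 1.11% and 1.67% of their level in CD8+ T cells, and NK cell markers to 34.8 and 93.2. All 6 T cell and all 6 NK cell genes found were above 0 in both libraries, and the part of these cells in the Ccl5 values was not tested.

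Several monocyte genes were far higher in APOE4 although the list was mixed. Ly6c2, an antigen of newly recruited monocytes, stood at 28.4 and 307 CPM, a ratio of 10.8 [9.06, 12.9], and was higher in 19 of 20 labels. Plac8 stood at 57.4 and 531 CPM, and Ms4a4c at 108 and 487. Ccr2, the receptor that brings monocytes into tissue, had a ratio of 0.891 [0.844, 0.941], and S100a4 and S100a6 had 0.589 and 0.732. Of the 17 members measured 10 were higher, and the median was 0.42. The 6 defining monocyte markers were all above 0 and summed to 1027 and 2065 CPM, 11.9% and 13.8% of their level in Monocytes 2. Ly6c2 was found in 5.13% and 31.1% of thinned members, and lymphoid cells, some of which carry the gene themselves, gave 32.2% and 39.9%. Whether monocytes under this label take part in the differences above was not tested.

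Arg1 stood at 482 and 252 CPM, a ratio of 0.522 [0.478, 0.569], and Ass1, which rebuilds arginine from citrulline, at 6.88 and 34.9, a ratio of 5.08 [3.43, 7.66]. The alternative activation list as a whole had a median of 0.05, with 10 of 19 members higher. Of the 19, 9 were past 1.5-fold down and 4 past 1.5-fold up, against 9.54% and 8.94% of all genes. The summed level of the list was 4367 and 3093 CPM, so the list was split rather than level. Il1b, the cytokine interleukin 1 beta, stood at 2495 and 3329.8 CPM, a ratio of 1.33 [1.30, 1.37]. The antibody receptors parted, with Fcgr4 at 2.75 [2.49, 3.04], Fcgr1 at 1.61 [1.49, 1.74] and the inhibitory Fcgr2b at 0.921 [0.874, 0.970]. Hypoxia and glycolysis genes were lower for 21 of 27 members, with a small median of -0.27. In heme handling Hmox1 had a ratio of 0.442 [0.384, 0.506] and the ferritin chain Fth1 1.29 [1.27, 1.30]. The ratios of Arg1, Il1b and Hmox1 differed between cells of low and high class II, as given below.

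Macrophage transcription factors with the CSF1 receptor had a median of 0.02, and oxidative phosphorylation genes 0.01. Csf1r, the receptor for the growth factor that sustains macrophages, stood at 629.6 and 639.9 CPM, and Cebpb at 1282 and 1247. These groups lay close to the median of all genes. Dissociation stress genes, a sign of how cells were handled, had a median of 0.13, with 17 of 23 members higher, 1 past 1.5-fold up and 2 past 1.5-fold down.

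**Figure D4:**
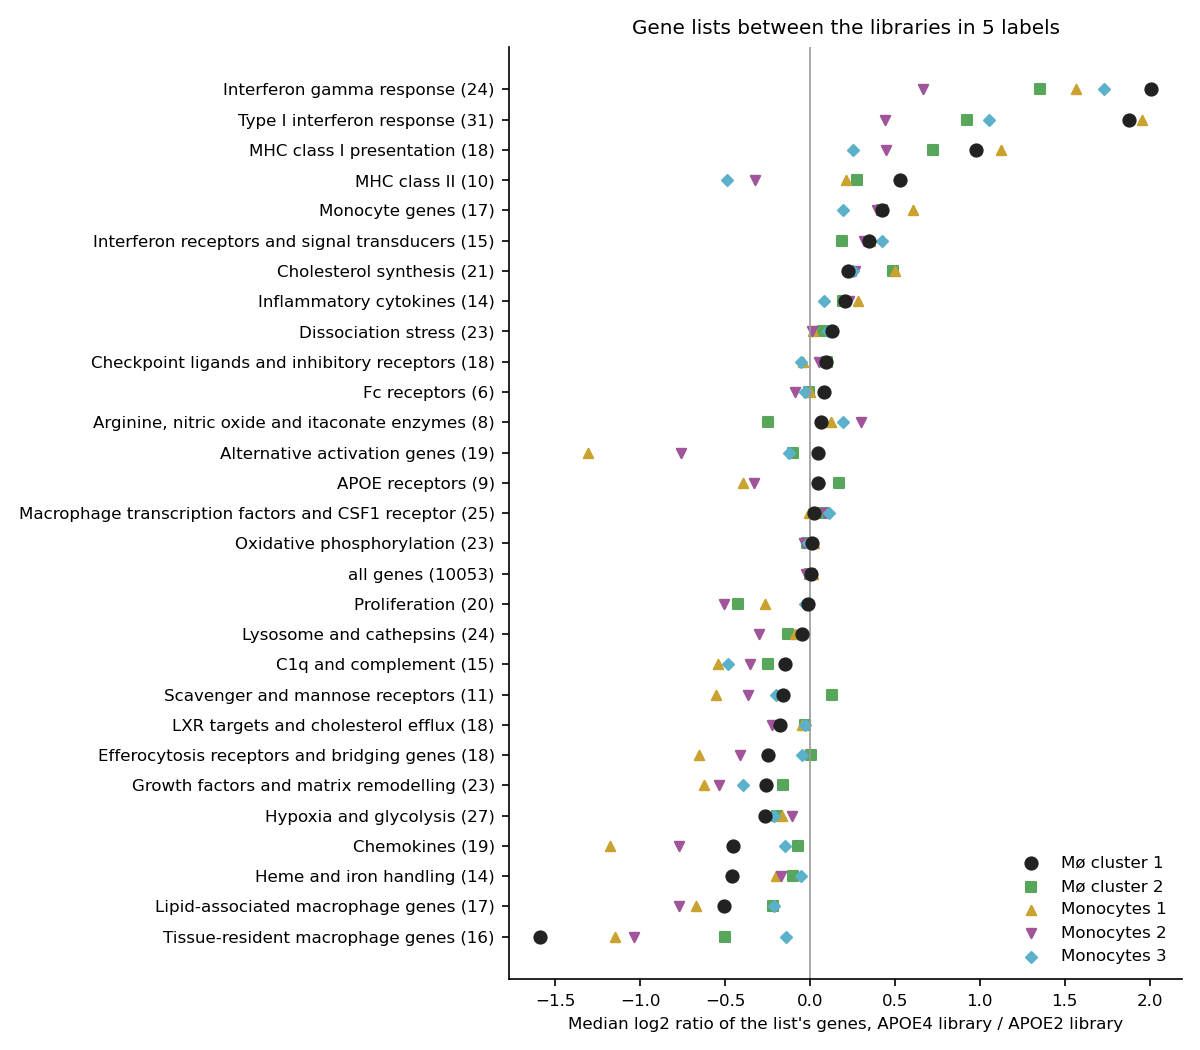
Median log2 ratio of the APOE4 to the APOE2 library (horizontal axis) for each gene list (vertical axis, number of members measured in Mø cluster 1 in brackets), in Mø cluster 1, Mø cluster 2 and Monocytes 1 to 3. Mø cluster 1 has the highest interferon gamma median (2.01) and the lowest tissue-resident median (-1.59) of the 5 labels, and all its genes together lie at 0.01.

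Members also differed among themselves. In cells thinned to 3000 UMIs, class II genes took a median of 92 UMIs in APOE2 and 154 in APOE4. The 10th percentiles were 1 and 21 and the 90th 205 and 240. Mø cluster 2 had medians of 52.5 and 75. In APOE2 the distribution had a group of cells close to 0, which was smaller in APOE4. Members with under 50 class II UMIs, a limit set after seeing the data, were 174 of 468 (37.2%, interval 32.8 to 41.7) in APOE2 and 39 of 241 (16.2%, interval 11.8 to 21.5) in APOE4. Between 25 and 100 class II UMIs lay 99 and 49 members, so the limit divides a range and names no cell type. Cells on both sides were deep, with medians of 11416 and 11422 UMIs below the limit and 10850 and 9375 above it.

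Cells with little class II carried more tissue-resident genes. In APOE2 the resident list took a median of 38 of 3000 UMIs below the limit and 8 above it, and in APOE4 22 and 7. Across cells of 1 library, which share that library and a fixed number of UMIs, Spearman's rho of the resident list with class II was -0.71 over 468 cells in APOE2 and -0.39 over 241 in APOE4. For the lipid-associated list it was -0.66 and -0.45, and for the interferon gamma list 0.26 and 0.38. Pf4 stood at 4025 CPM below and 714 above the limit in APOE2, and at 2433 and 293 in APOE4. Gas6 stood at 305 and 20.1 in APOE2 and 74.4 and 7.99 in APOE4. The lectin Mgl2 ran the other way, at 52.2 and 615 in APOE2 and 14.9 and 129 in APOE4.

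**Figure D5:**
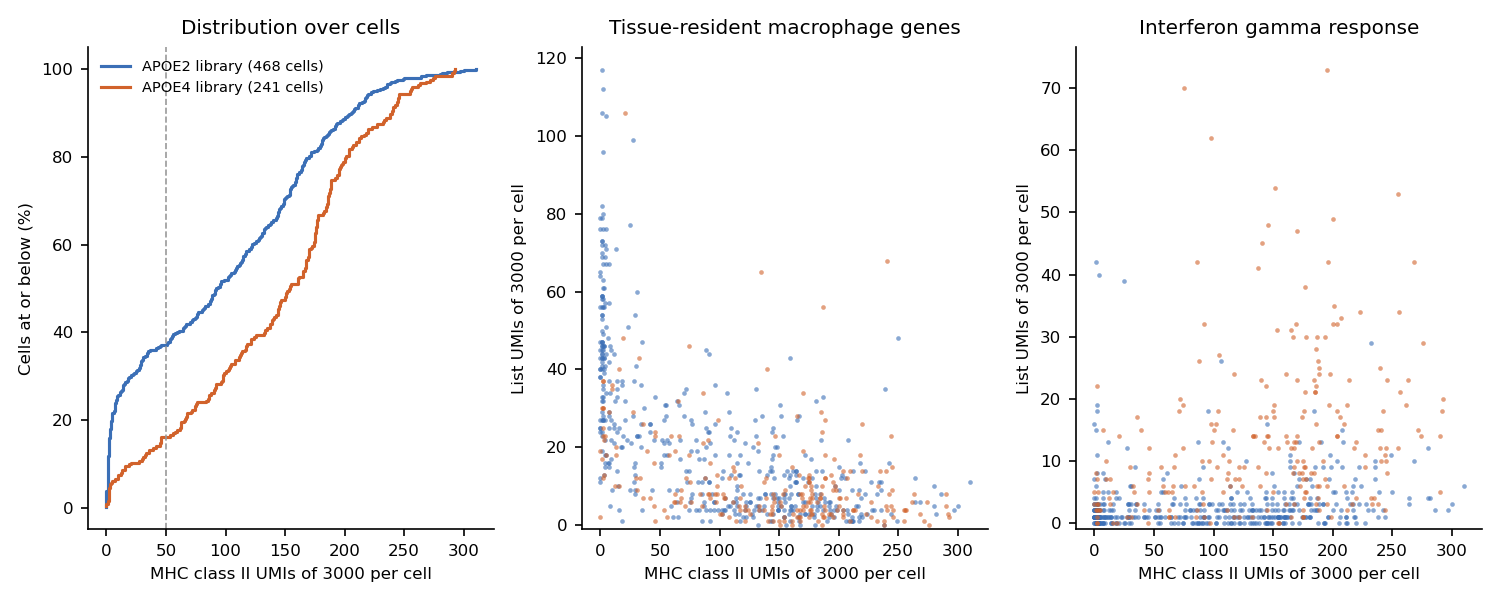
Left, share of Mø cluster 1 cells (vertical axis, %) at or below a number of MHC class II UMIs of 3000 per cell (horizontal axis), with the limit of 50 dashed. Middle and right, UMIs of the tissue-resident and interferon gamma lists (vertical axes, of 3000 per cell) against MHC class II UMIs, 1 point per cell; the APOE2 library (blue) has 37.2% of cells under the limit and the APOE4 library (orange) 16.2%, and the highest resident values lie near 0 class II UMIs.

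The differences between the libraries were then taken separately on each side of the limit, a choice made after seeing the data. Tissue-resident genes had medians of -1.08 below and -0.86 above it, beside -1.59 in all members. Type I interferon genes had 1.32 and 1.87, and interferon gamma genes 1.29 and 2.18. The lipid-associated list had -0.50 below and -0.06 above the limit, so it was nearly level in cells with more class II. Cxcl9 was at 94.5 and 63.8 CPM in cells with little class II, a ratio of 0.675 [0.443, 0.995], and at 104 and 926 in the others. The ratio in cells with little class II rests on 192 and 30 UMIs, and its interval barely cleared 1. Ccl8 stood at 1045 and 863 CPM below the limit and 31.6 and 643 above it. In APOE2 Ccl8 was thus mostly a transcript of cells with little class II, while in APOE4 its transcripts came from both sides. Only a minority of members held Ccl8 in either library. A small minority of the named genes turned direction, 10 below the limit and 4 above it. For these genes the interval in all members and that in the range lay on opposite sides of 1. No count over all genes was set beside them. Below the limit C4b had 55 and 3 UMIs, a ratio of 0.236 [0.0471, 0.725] against 3.31 in all members, Fn1 a ratio of 1.14 [1.03, 1.26], Thbs1 1.36 [1.22, 1.51] and Ccr2 1.29. The others there were Cxcl9, Ccl8, Clec4n, Cst3, Fos and Zmynd15. Apoe had a ratio of 0.297 [0.231, 0.377] below the limit and 1.46 [1.29, 1.65] above it, and the cathepsin Ctsb 0.652 [0.609, 0.698] and 1.28 [1.21, 1.36]. C1qa and Tgfbi also turned above the limit, at 1.07 [1.04, 1.10] and 0.948 [0.914, 0.983]. Ly6a was higher in APOE4 on both sides, at 79.8 and 651 CPM below and 306 and 1869 above. Il1b had a ratio of 2.22 [2.05, 2.41] below the limit and 1.04 [1.01, 1.07] above it. For Arg1 the ratios were 1.06 [0.928, 1.20] below and 0.412 [0.366, 0.463] above, and for Hmox1 0.289 [0.214, 0.385] and 0.841 [0.704, 1.00].

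Most lists of other cell types' markers were low in the members. Neutrophil markers summed to 187 and 70.6 CPM, with Ly6g at 0 in APOE4. B cell markers summed to 24.2 and 25.3 CPM. Markers of cDC1 and cDC2 summed to 61.0 and 70.2 and to 32.5 and 26.5 CPM. Fibroblast markers summed to 6.32 and 21.9 CPM, and of 6 melanoma markers 5 were at 0 in APOE2 and 6 in APOE4. Langerhans cell markers summed to 32.3 and 14.6 CPM, 36.1% and 288% of the level in Migratory DCs. Endothelial markers, of which 2 of 4 were at 0, summed to 17.8 and 40.7 CPM, 7.13% and 12.5% of the level in pDCs. The part of these cells in the results was not tested. The members' macrophage markers were 18125 and 16313 CPM by the same measure.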

How the data were processed

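Droplet 3′ single-cell libraries, 1 per genotype, were analysed from the deposited counts of UMIs per gene and cell, which were made with Cell Ranger on mm10 per the submitters' processing notes. The deposited cell table, made with Seurat 3.0.2 per the same notes, gave the authors' label, the UMI total and the percent of mitochondrial UMIs of each cell. It could be joined to the matrices by barcode for all 10050 annotated cells, whose totals differed by at most 0.89%. The matrices held 5063 and 5689 barcodes with 41207514 and 37349222 UMIs (APOE2, then APOE4), and barcodes with no label were not used. How the authors filtered cells, clustered them or treated doublets is not stated in the labels or file headers.

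UMIs were summed over the cells of a label in a library and divided by the label's total. With 1 library per genotype no test is possible, so ratios carry exact conditional 95% intervals and shares exact Clopper-Pearson intervals, all of which cover counting error only. The count and interval code was checked on simulated data. A gene was called from 100 UMIs at a ratio of 2 or its inverse. List medians used members with at least 20 UMIs, with 0.5 added to both counts of a member where either was 0. Cells were thinned to 3000 UMIs for shares of positive cells and values per cell. The doublet caller of scanpy marked 0 and 3 cells (0.0557% of the APOE4 library), too few for its calls to be used, and only its score served, to leave out the top 10% of cells as an alternative. Other alternatives were TMM scaling, thinning, the mean over cells of each cell's CPM, cells under 5% mitochondrial UMIs and other limits on UMIs.

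Named genes were, without genes of ribosomal proteins, haemoglobin, antigen receptor segments, the mitochondrion and Xist or the Y chromosome, and without those with under 10% of the level in their highest label, the 12 furthest apart in each direction by the interval bound nearest to 1, the 12 highest over every other label, the 4 most abundant members and any member past 2-fold of each of 28 lists, and 11 genes of prior interest. The members, lists and rules were chosen with earlier results of these data known. Genes of the Ly6, Gbp, H2-Q, Ifit and Pydc families share sequence, and antisense genes are uncertain where strand was not used in counting. Some genes of the lists are not reported here. Promoters came from RefSeq. Tools were Python 3.11.15, numpy 2.4.6, pandas 2.3.3, scipy 1.17.1, scanpy 1.11.5, matplotlib 3.10.9, R 4.3.3 and edgeR 4.0.16, the last for TMM factors alone.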

Additional observations from a re-analysis of the deposited data

Results flagged for a closer look

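A small minority of the named genes, 9, lay on opposite sides of 1 in the macrophage clusters, with neither interval reaching 1. No count over all genes was set beside them. The difference between the clusters was not tested, and each library is 1 pool.

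Hpgd, which breaks down prostaglandins, had a ratio of 0.413 [0.257, 0.638] in Mø cluster 1 and 4.35 [1.43, 14.6] in Mø cluster 2. The Mø cluster 2 ratio rests on few cells, as Hpgd was found in 0.270% and 2.07% of them after thinning. Hmox1 had 0.442 [0.384, 0.506] and 1.14 [1.08, 1.19], and Syngr1 0.436 [0.298, 0.625] and 1.57 [1.01, 2.41]. In Mø cluster 1 cells with under 50 MHC class II UMIs these genes had ratios of 0.289 and 0.557. In the other members they had 0.841 [0.704, 1.00] and 1.33 [0.654, 2.67], so neither was clearly lower there. The complement component C4b ran the other way, at 3.31 [2.45, 4.50] in Mø cluster 1 and 0.777 [0.651, 0.924] in Mø cluster 2, but its direction turned within Mø cluster 1, where cells with under 50 MHC class II UMIs had a ratio of 0.236 [0.0471, 0.725] and the others 9.64.

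The remaining genes were close to 1 in at least 1 cluster. Ptgs2, the inducible cyclooxygenase, had 1.17 [1.08, 1.27] and 0.786 [0.711, 0.868], and the cytokine oncostatin M (Osm) 1.13 [1.03, 1.24] and 0.740 [0.654, 0.837]. Prosaposin (Psap), a lysosomal cofactor, had 1.21 [1.18, 1.24] and 0.969 [0.944, 0.995]. The immediate early gene Junb had 1.06 [1.03, 1.10] and 0.902 [0.865, 0.941], and the respiratory chain subunit Cox5a 1.07 [1.01, 1.13] and 0.918 [0.851, 0.990]. For these genes the counts are large and the intervals narrow, so differences of under 1.5-fold clear them without any replicate behind them.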

How the results depend on the processing

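No paired analysis was possible because each genotype is 1 library, and leaving out a replicate could not be done for the same reason. Of the alternative values of the counts, list medians and shares, 237 stayed within their error or within 1.5 times and 15 did not. Of those for single genes 648 stayed, 232 moved and 5 were reversed. Where no construction is named, the cause was not tested. With a limit of 20 UMIs, which admits more genes with few counts, 354 genes were higher and 387 lower in APOE4 (152 and 105 from 100 UMIs). For Mø cluster 1 against Mø cluster 2 the counts were then 299 and 378 (140 and 223). Thinning to 3000 UMIs per cell, which leaves fewer counts, gave 249 genes lower in APOE4, with 87 of the 105 among them, and kept 134 of the 152. TMM scaling kept 145 of the 152 and all 105. In cells under 5% mitochondrial UMIs, 142 of the 152 and 84 of the 105 were kept. Between the clusters, thinning kept 100 of the 140 and 187 of the 223. The ratio of shares was 0.562 in cells under 5% mitochondrial UMIs, 0.567 of myeloid labels and 0.567 of monocyte and macrophage labels, against 0.441 of all cells. In cells with under 50 MHC class II UMIs, a limit chosen after seeing the data, list medians were 1.32 for type I interferon, 1.29 for interferon gamma, 0.58 for MHC class I, 0.58 for cholesterol synthesis, 0.29 for proliferation and -0.059 for dissociation stress. Above that limit the lipid-associated median was -0.064. Among genes past 2-fold with at least 100 UMIs in the class II range, Cxcl9 (0.675 [0.443, 0.995]) and Cxcl1 (1.22 [0.975, 1.52]) were reversed below the limit. Above it Ccl7 (1.07 [0.930, 1.22]) and Fabp5 (1.03 [0.900, 1.17]) were reversed. The intervals of Cxcl1, Ccl7 and Fabp5 held 1, and that of Cxcl9 barely cleared it. Fam20a (1.17) was reversed after thinning, where no such limit on UMIs was set. It was found in only 1.07% and 1.24% of thinned members, so its ratio rests on few counts. Further turns by class II range, in genes with smaller ratios or fewer UMIs, are given in the report, Apoe and Ctsb among them.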

Other observations

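Secreted growth factors and matrix genes in Mø cluster 1 were lower in APOE4 for 14 of 23 members. Of all 10053 genes measured, 4957 were lower. The median log2 ratio of the list was -0.26 beside 0.01 for all genes. In Mø cluster 2 14 of 23 members were lower too, at a median of -0.16. Monocytes 1, 2 and 3 had medians of -0.62, -0.54 and -0.39, so the lower values were not confined to Mø cluster 1. Fibronectin (Fn1), a matrix protein that macrophages deposit, stood at 1076 and 541 CPM in Mø cluster 1, a ratio of 0.502 [0.474, 0.533]. In cells with under 50 MHC class II UMIs Fn1 and Thbs1 were higher in APOE4, at ratios of 1.14 and 1.36, and in the others Tgfbi was lower, at 0.948. Thrombospondin (Thbs1) stood at 1129 and 779 CPM, the metalloprotease Mmp19 at 104 and 49.5, and amphiregulin (Areg), a ligand of the EGF receptor, at 26.0 and 9.59. Areg had a ratio of 0.369 [0.231, 0.567] in Mø cluster 1 and 1.01 [0.841, 1.21] in Mø cluster 2. Tgfb1 was level, at 1.04 [0.947, 1.14], and Tgfbi, a matrix protein induced by it, stood at 1.12 [1.08, 1.15]. In the hypoxia list Ankrd37 and Egln3, targets of the hypoxia factor, had 177 and 42 and 97 and 23 UMIs, ratios of 0.490 [0.341, 0.689] and 0.490 [0.296, 0.778]. The glycolytic enzymes Aldoa, Pkm and Ldha, with far more UMIs, had ratios of 0.830, 0.873 and 0.848.

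Lysosomal proteases parted within their list, whose median was -0.05 with 11 of 24 members higher. Ctss, the cathepsin that trims the invariant chain, stood at 3112 and 4634 CPM, a ratio of 1.49 [1.45, 1.52]. Ctsb and Ctsl stood at 0.705 [0.677, 0.734] and 0.725 [0.682, 0.770], and Ctsc at 1.17 [1.13, 1.21]. Ctsb was higher in cells with at least 50 MHC class II UMIs, at 1.28 [1.21, 1.36]. Of molecules that face T cells, the costimulators Cd40 and Cd86 had ratios of 2.27 [1.76, 2.93] and 1.38 [1.26, 1.51], and the inhibitory ligand Vsir 1.01 [0.930, 1.11]. Sirpa, which receives the CD47 signal that restrains phagocytosis, had a ratio of 0.830 [0.780, 0.883]. Ferritin chains also parted, with the light chain Ftl1 at 0.776 [0.760, 0.793] and the heavy chain Fth1 at 1.29 [1.27, 1.30]. Of proliferation genes 10 of 20 were higher, with a median of -0.01.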
